A study of Mus musculus with 12 samples.

Results

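Matrix metalloproteinases are secreted or membrane-bound zinc proteases that cut collagens, elastin, laminins and other matrix proteins. The 9 metalloproteinase genes Mmp2, Mmp3, Mmp7, Mmp8, Mmp9, Mmp10, Mmp12, Mmp13 and Mmp14 and the inhibitor gene Timp1 were followed across islets of Langerhans from mice given streptozotocin (STZ). The 10 genes were chosen by symbol out of 24421 in the deposited gene table, and all 10 were found and passed the filter on low counts. The enzymes are made as inactive precursors, are freed by other proteases at the cell surface or in the matrix, and are held in check by the tissue inhibitors of metalloproteinases. In injured tissue they come largely from fibroblasts, macrophages, neutrophils and epithelia, and in islets they are studied for the turnover of the basement membrane around the endocrine cells.

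The study crossed genotype with injury in 12 RNA libraries of islets. Knockout mice (Bmal1fl/flRIPCreERT/+) carry floxed alleles of the clock gene Bmal1 and a Cre-oestrogen receptor fusion under the rat insulin promoter. This design is meant to limit deletion to insulin-producing cells and to make it depend on tamoxifen. Control mice (Bmal1fl/fl) carry the same floxed alleles without Cre, and the sources used here give no tamoxifen regimen. Each genotype was sampled 24 h after citrate buffer (vehicle), 24 h after STZ and 4 wk after STZ, with 2 libraries, A and B, per group. STZ is a glucose analogue that enters beta cells through their glucose transporter and damages their DNA. The sources used here give no age for the animals. Nothing in the labels ties A and B to separate animals, so all p-values measure the spread between these libraries only, and that spread may be technical. No vehicle library of 4 wk was used, so 4 wk against vehicle mixes treatment with time.

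Estimated counts per library summed to between 101772241 and 127207523. Levels are given as CPM, counts scaled to a common library size with TMM factors, where 3 counts correspond to 0.0216 to 0.0341 CPM. Exon 8 of Arntl, the gene of BMAL1, was covered at 0.627 to 1.37 times the mean depth of its transcript in the 6 knockout libraries and at 1.56 to 1.99 times in the 6 control libraries, with no overlap. The labels call the cells mostly beta cells, and the summed beta-cell markers were 22728 to 25293 CPM in knockout libraries 24 h after STZ, against 119840 to 128650 CPM in control libraries. Acinar markers were also abundant, at 44010 to 50916 CPM in knockout vehicle libraries and 209560 to 224190 CPM in control vehicle libraries. In such bulk samples, fewer cells of a type and less RNA per cell cannot be told apart. In this text a gene rose or fell when the adjusted p of edgeR's quasi-likelihood test, adjusted by Benjamini-Hochberg over all 17411 genes tested, was under 0.05.

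All 10 genes lie on the plus strand of mm10. Of these, 6 lie on chromosome 9 within 426.9 kb, in the order Mmp13 (7272514 to 7283333), Mmp12 (7347374 to 7360461), Mmp3 (7445822 to 7455974), Mmp10 (7502342 to 7510242), Mmp8 (7558429 to 7568486) and Mmp7 (7692111 to 7699416). Mmp2 lies on chromosome 8 (92827328 to 92853420), Mmp9 on chromosome 2 (164948219 to 164955849), Mmp14 on chromosome 14 (54431604 to 54441258) and Timp1 on chromosome X (20870166 to 20874737). Over 123 bases, 14% of its transcript, Mmp7 overlaps the antisense gene AV064505, and the counts used strand.

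The promoter ends are shown because stromelysin and collagenase genes are known targets of AP-1, the dimer of Fos and Jun family proteins, and genes of this cluster were higher in knockout islets after STZ. RefSeq windows (GRCm38.p6) were found for 8 of the 10 genes, and none for Mmp2 and Mmp9. The AP-1 motif, TGAGTCA or its reverse complement TGACTCA, was searched in the 250 bases before the start. It was present in 5 of the 8 windows, those of Mmp3, Mmp7, Mmp10, Mmp12 and Mmp13, and not in those of Mmp8, Mmp14 and Timp1, while 4.46% of all 32851 windows held it. The 5 genes were not drawn independently, since they lie in the same stretch of chromosome 9 and are related in sequence. The 100 bases before the start follow for these 5 genes, all on the plus strand, with the motif in capitals. Among the members on chromosome 9, only Mmp8 had no match in its promoter window. A match is a description of letters, not evidence of binding.
Mmp3, chr9:7445722-7445821: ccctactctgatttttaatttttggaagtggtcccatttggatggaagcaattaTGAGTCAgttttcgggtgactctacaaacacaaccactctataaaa
Mmp10, chr9:7502242-7502341: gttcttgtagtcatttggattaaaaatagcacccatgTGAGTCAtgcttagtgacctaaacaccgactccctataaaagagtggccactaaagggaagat
Mmp13, chr9:7272414-7272513: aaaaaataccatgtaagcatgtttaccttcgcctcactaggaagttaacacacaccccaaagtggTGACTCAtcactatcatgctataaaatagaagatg
Mmp12, chr9:7347274-7347373: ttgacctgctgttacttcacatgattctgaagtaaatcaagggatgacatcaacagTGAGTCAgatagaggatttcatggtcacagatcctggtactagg
Mmp7, chr9:7691990-7692089: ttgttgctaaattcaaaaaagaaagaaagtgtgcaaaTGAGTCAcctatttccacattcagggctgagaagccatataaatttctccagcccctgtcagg
The first base of the motif stood 46 bases before the start of Mmp3, 63 before those of Mmp10 and Mmp7, 35 before that of Mmp13 and 44 before that of Mmp12. The RefSeq start of Mmp7 lies 21 bases from the transcript start in the deposited files.

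Each of the 10 genes was highest on average in a knockout group after STZ, Mmp2, Mmp3, Mmp8, Mmp12, Mmp14 and Timp1 at 24 h and Mmp7, Mmp9, Mmp10 and Mmp13 at 4 wk. At 24 h after STZ, 9 of 10 genes were higher in knockout than in control and none was lower. Among all genes tested 43% were called there, 23.7% higher and 19.4% lower. Of the 9 calls, 7 held whichever library was left out. The median log2 fold change of the 10 genes, with Mmp10 at its lower bound, was 2.34, against 0.0015 over all genes tested.

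At 4 wk after STZ, 6 of 10 genes were higher in knockout and none was lower, where 27.8% of all genes were called, 19.9% higher and 7.89% lower. The members' median was 2.65, against 0.0067 over all genes tested. Under vehicle none of the 10 was called by edgeR, where 9.64% of all genes were called, 1.96% higher and 7.68% lower. There 6 of the 10 had an unadjusted p under 0.05 in edgeR's test. The share of all genes at that unadjusted threshold was not counted, and the 9.64% is not its counterpart. DESeq2's Wald test called Mmp2 and Mmp3, both lower in knockout. Mmp3 was also called both with total-count scaling and when the 4 vehicle libraries were fitted alone. The median over the 9 genes with counts was -0.65, against 0 over all genes. Stomach genes differed between these libraries too: of 6 stomach markers, 5 were lower and 0 higher in knockout under vehicle. Gkn1, a stomach gene, had 84.7 and 75.8 CPM in control vehicle libraries and 0 CPM in both knockout vehicle libraries. The part of stomach tissue in the vehicle values, which also serve as baseline for the STZ contrasts, was not tested. Knockout and control libraries did not overlap in 7 of the 10 genes under vehicle, 10 at 24 h and 9 at 4 wk. Among all genes tested that held for 43.6% under vehicle, 83% at 24 h and 51.7% at 4 wk, so non-overlap by itself was common.

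**Figure D1:**
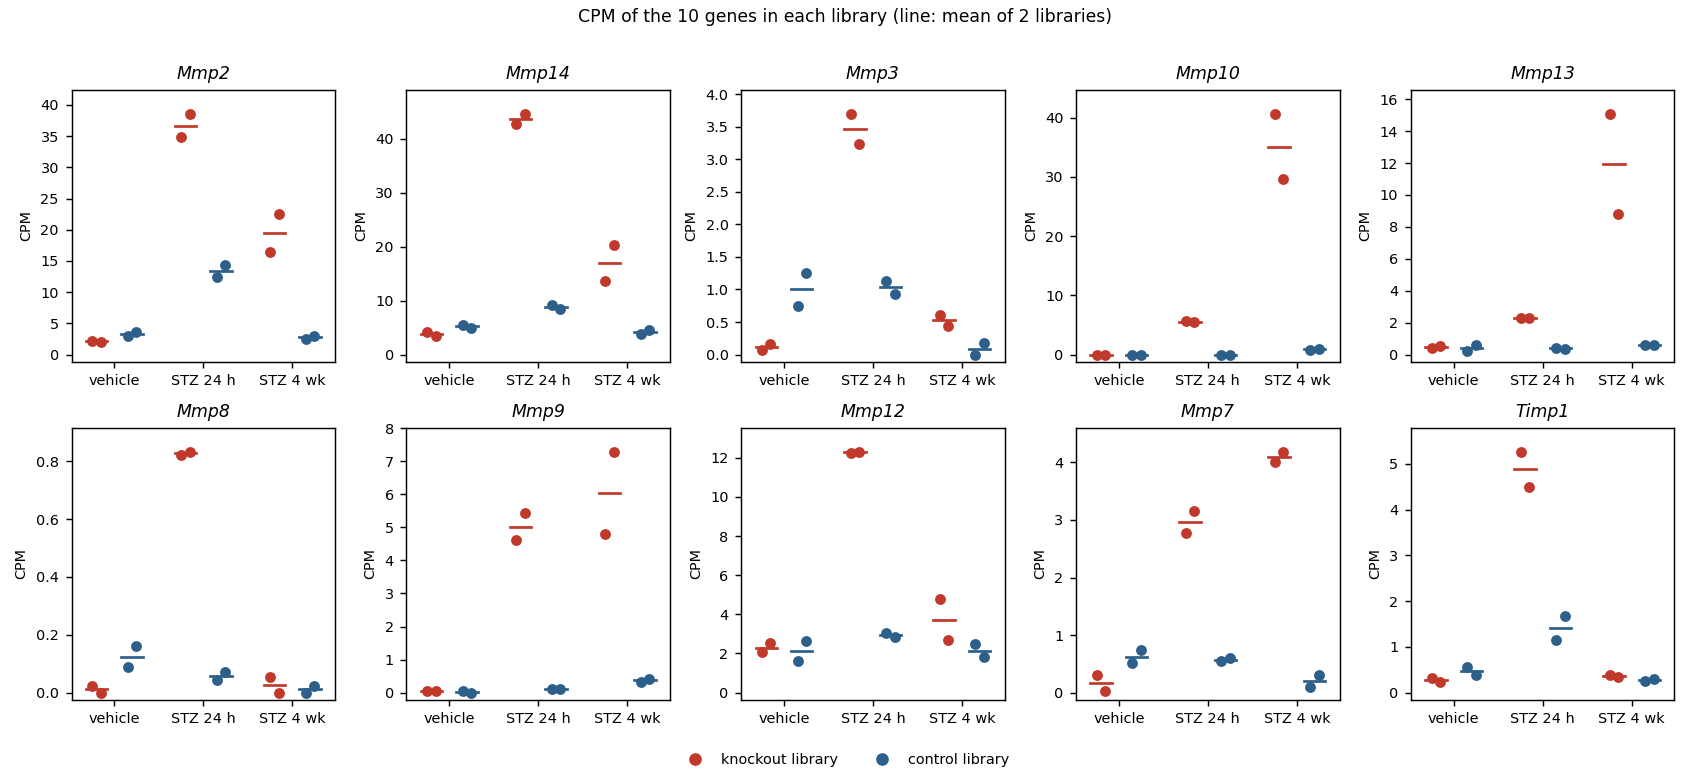
CPM of each gene in the 12 libraries, with knockout points left of control points within vehicle, STZ 24 h and STZ 4 wk, and lines at the mean of 2 libraries (each panel has its own linear axis). Knockout points stand highest after STZ in every panel, at 24 h for Mmp2, Mmp14, Mmp3, Mmp8, Mmp12 and Timp1 and at 4 wk for Mmp10, Mmp13, Mmp9 and Mmp7.

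Against vehicle, all 10 genes were higher 24 h after STZ in knockout, where 56.4% of all genes were called, 30.1% higher and 26.2% lower. In control 2 were higher, Mmp2 and Timp1, where 7.56% of all genes were called, 5.41% higher and 2.15% lower. Total-count scaling and DESeq2's Wald test each called 4 in control, Mmp9 and Mmp14 in addition, and leaving out a library gave 1 to 3. The members' median log2 fold change was 4.12 in knockout, against 0 over all genes, and 0.48 over the 9 genes with counts in control, against 0.016 over all genes. At 4 wk, 6 of 10 were above vehicle in knockout (35.9% of all genes called, 24.1% higher and 11.7% lower; median 2.71 against 0.018). In control 2 were, Mmp9 and Mmp10 (8.99% called, 4.98% higher and 4.01% lower; median -0.31 against 0.032). The same vehicle libraries serve both times, and genes of other tissues moved in these contrasts as well. Alb, a liver gene, had 1.84 and 2.22 CPM under vehicle in knockout and 10761 and 10130 CPM at 24 h. In control it had 117 and 129 CPM under vehicle and 2852.5 and 2932 CPM at 24 h. Of 10 acinar markers, 10 were higher at 24 h than under vehicle in knockout, and 0 were higher and 3 lower in control. Of 6 stomach markers, 3 were higher and 2 lower in knockout, and 0 were higher and 5 lower in control. The part of these tissues in the results was not tested.

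Set against 24 h, the 4 wk knockout libraries had more Mmp10 and Mmp13 and less of 6 genes, Mmp2, Mmp3, Mmp8, Mmp12, Mmp14 and Timp1 (35.7% of all genes called, 20.2% higher and 15.5% lower; median -1.13 against 0.099). In control, Mmp10 was higher at 4 wk and Mmp2, Mmp14 and Timp1 were lower (5.49% called, 1.27% higher and 4.22% lower; median -1.29 against 0.0086). The libraries of STZ 24 h and vehicle did not overlap in 10 members in knockout and 6 in control, against 79.8% and 67.3% of all genes. Those of STZ 4 wk and vehicle did not overlap in 9 members in knockout and 8 in control, against 57.5% and 45.4%, and those of 4 wk and 24 h in 9 in knockout and 10 in control, against 64.9% and 40.2%.

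**Figure D2:**
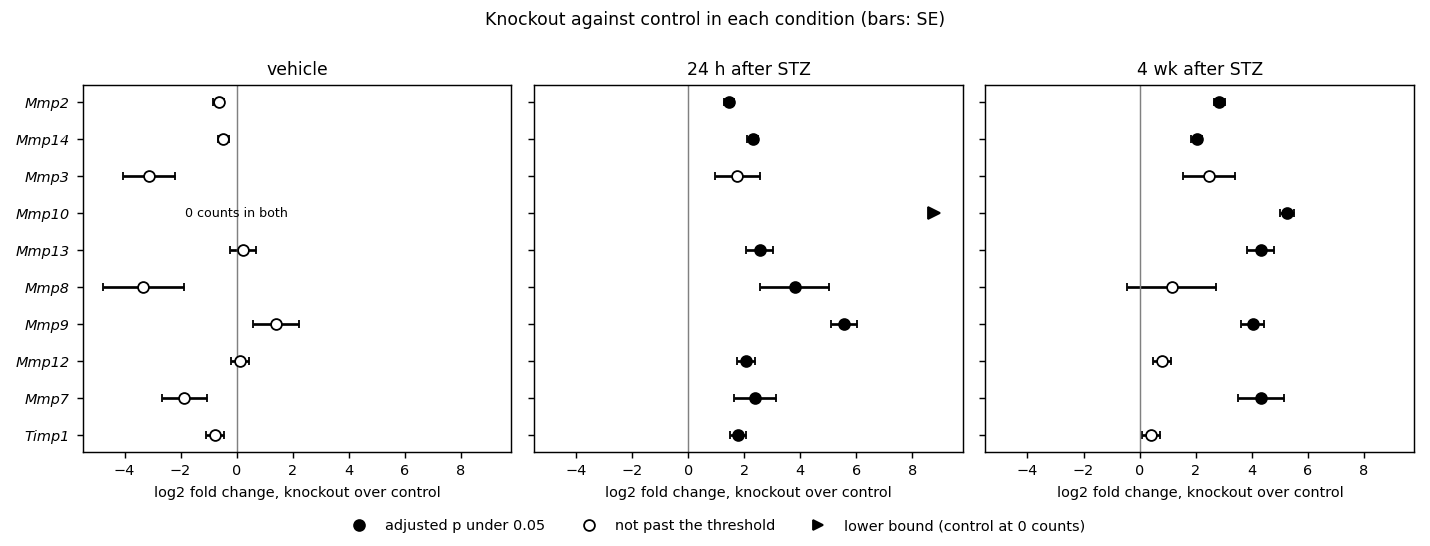
Log2 fold change of knockout over control in each condition, with SE as bars, filled points for an adjusted p under 0.05 and a triangle for a lower bound where the control libraries had 0 counts. No gene is filled under vehicle, 9 genes (the triangle included) are past the threshold at 24 h and 6 at 4 wk.

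Mmp14 (membrane-type metalloproteinase) and Mmp2 (gelatinase A) form a chain: MMP14 sits in the cell membrane and, with TIMP2 as an adaptor, frees active MMP2. In knockout libraries, Mmp14 had 42.8 and 44.6 CPM 24 h after STZ, against 9.25 and 8.45 CPM in control libraries. Its 4 wk values were 13.7 and 20.4 CPM in knockout, against 3.83 and 4.48 CPM in control. Under vehicle it had 4.15 and 3.41 CPM in knockout, against 5.48 and 5.02 CPM in control. Knockout libraries thus lay above both control libraries after STZ and below both under vehicle, where the direction turned round with total-count scaling (log2 0.0625, against -0.47 with TMM; neither was called). The log2 fold change of Mmp14 was 2.30 (SE 0.20, adjusted p = 3.91e-05) at 24 h and 2.04 (SE 0.20, adjusted p = 0.00011) at 4 wk. Within knockout, 4 wk was below 24 h (log2 -1.36, SE 0.20, adjusted p = 0.00087). Within control it was as well (log2 -1.09, SE 0.20, adjusted p = 0.014), a call lost without any 1 of 3 libraries (adjusted p 0.062 to 0.10).

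Mmp2 had 34.9 and 38.5 CPM in knockout libraries 24 h after STZ, against 12.4 and 14.3 CPM in control libraries. Its 4 wk values were 16.5 and 22.6 CPM in knockout, against 2.49 and 2.99 CPM in control. The groups did not overlap at either time. In control, 24 h after STZ exceeded vehicle (2.99 and 3.63 CPM) by a log2 of 2.01 (SE 0.19, adjusted p = 0.00021), and 4 wk was not called against vehicle (log2 -0.27, SE 0.19, adjusted p = 0.53). In knockout the 24 h level exceeded vehicle (2.21 and 2.02 CPM) by 4.12 (SE 0.21, adjusted p = 7.34e-07). Knockout exceeded control by 1.46 (SE 0.19, adjusted p = 0.00032) at 24 h and by 2.83 (SE 0.20, adjusted p = 1.59e-05) at 4 wk.

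Markers of fibroblasts and stellate cells moved alongside both genes. Their summed level (8 markers) was 1128.8 to 1130.5 CPM in knockout and 431.9 to 439.7 CPM in control 24 h after STZ, and 361 to 406 CPM in knockout and 135 to 152 CPM in control at 4 wk. Of the 8 markers, 5 were higher in knockout at 24 h and 6 at 4 wk, where 23.7% and 19.9% of all genes were higher. Csf1r, a macrophage gene, had 233 and 238 CPM in knockout libraries 24 h after STZ, against 23.0 and 23.9 CPM in control, and was also high where Mmp14 was. The part of these cells in the Mmp2 and Mmp14 results was not tested.

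Mmp10 (a stromelysin, made by epithelia and macrophages) was the only member with no count in any vehicle library. It had 0 counts also in both control libraries 24 h after STZ, and 544 and 570 counts (5.60 and 5.45 CPM) in the knockout libraries of that time. The 4 wk libraries had 40.6 and 29.6 CPM in knockout, against 0.846 and 0.983 CPM in control. The libraries of knockout and control did not overlap at either time. Against a floor of 3 counts over the 2 control libraries, knockout exceeded control at least 439-fold at 24 h (adjusted p = 1.84e-05), and at 4 wk the log2 fold change was 5.26 (SE 0.25, adjusted p = 4.95e-05). In knockout, the 4 wk level exceeded the 24 h level by a log2 of 2.67 (SE 0.22, adjusted p = 0.00042), and in control the 4 wk level exceeded the 24 h floor at least 73.1-fold.

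Genes of intestinal enterocytes were present in the same libraries as Mmp10. Sis, the gene of the brush-border enzyme sucrase-isomaltase, was at most 0.049 CPM in the 4 vehicle libraries and the 2 control libraries of 24 h. Sis had 2990 and 2034 CPM in knockout libraries at 4 wk and 67.9 and 49.3 CPM in control libraries, and 26.1 and 25.1 CPM in knockout libraries at 24 h, against 0.0438 and 0 CPM in control. Fabp2, an intestinal fatty acid binder, had 3049 and 2068 CPM in knockout at 4 wk and 59.5 and 38 CPM in control. The enterocyte and goblet list, without Zg16, an acinar gene too, summed to 10829 to 10958 CPM in knockout at 4 wk and 347 to 353 CPM in control. At 24 h it summed to 820 to 844 CPM in knockout and 215 CPM in control. Most of the control sum at 24 h was Fabp1 (118 and 116 CPM) and Vil1 (85.7 and 87.6 CPM). Vil1 had 64.1 and 63.8 CPM in control vehicle libraries, where Mmp10 was also at 0. All 10 genes of the list were higher in knockout at 4 wk and 8 of 10 at 24 h, where 19.9% and 23.7% of all genes were higher. Their part in the Mmp10 result was not tested.

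**Figure D3:**
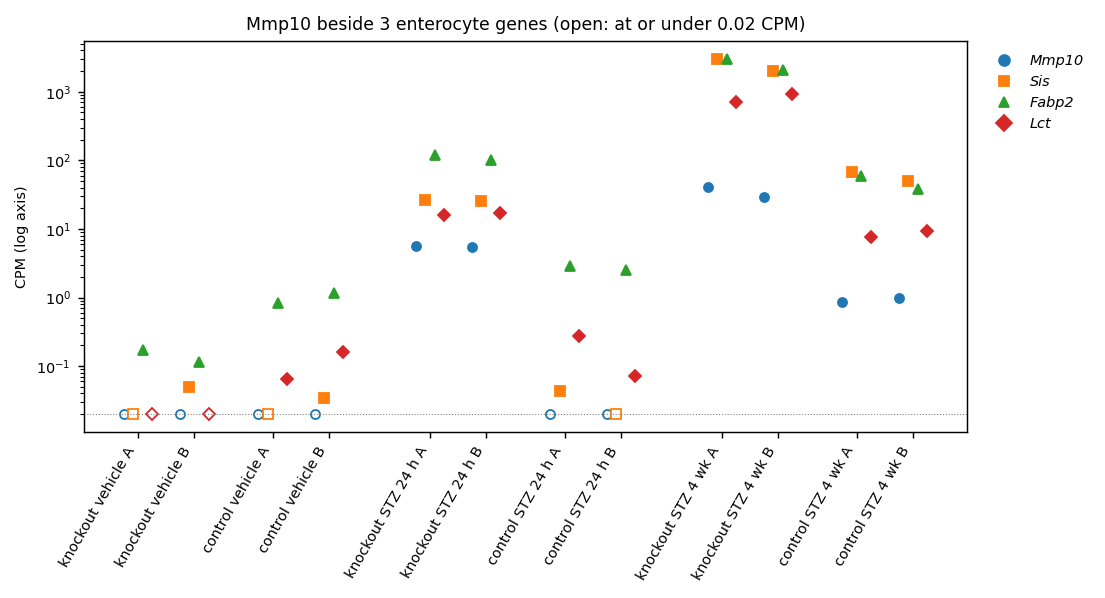
CPM on a log axis of Mmp10 and the enterocyte genes Sis, Fabp2 and Lct in each library, with open symbols at or under 0.02 CPM. Mmp10 is at 0 in all 4 vehicle libraries and both control libraries of 24 h, and all 4 genes are highest in the knockout libraries of 4 wk.

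Mmp3 (stromelysin, which also activates other metalloproteinases) was 3.69 and 3.23 CPM in knockout libraries 24 h after STZ, against 1.13 and 0.93 CPM in control. It was 0.0649 and 0.163 CPM in knockout libraries under vehicle, against 0.751 and 1.25 CPM in control. Later, at 4 wk, it was 0.606 and 0.445 CPM in knockout, against 0 and 0.182 CPM in control. Knockout stood above control after STZ and below it under vehicle. Knockout against control was not called at 24 h in the fit of all libraries (log2 1.75, SE 0.80, adjusted p = 0.11) but was with only the 4 libraries compared (adjusted p = 3.46e-05), and at 4 wk it was not called (log2 2.47, SE 0.93, adjusted p = 0.083) but was without control library B, which left 1 control library with 0 counts (adjusted p = 0.0023). In knockout, 24 h exceeded vehicle by a log2 of 4.92 (SE 0.96, adjusted p = 0.0022). The lower level at 4 wk than at 24 h in knockout (log2 -2.72, SE 0.84, adjusted p = 0.033) lost its call without any 1 of the 4 libraries (adjusted p 0.072 to 0.12).

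Mmp13 (collagenase, which opens fibrillar collagen) had 2.28 CPM in both knockout libraries 24 h after STZ, against 0.421 and 0.361 CPM in control. The 4 wk values of Mmp13 were 15.1 and 8.78 CPM in knockout, against 0.608 and 0.583 CPM in control. Under vehicle it had 0.389 and 0.556 CPM in knockout, against 0.196 and 0.615 CPM in control, and the groups overlapped. Knockout exceeded control by a log2 of 2.55 (SE 0.47, adjusted p = 0.0023) at 24 h and of 4.32 (SE 0.49, adjusted p = 0.00023) at 4 wk. In control it was not called after STZ at either time. Within knockout, 4 wk was above 24 h (log2 2.38, SE 0.44, adjusted p = 0.0032).

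Mmp8 (neutrophil collagenase) had 0.823 and 0.831 CPM (80 and 87 counts) in knockout libraries 24 h after STZ, against 0.0438 and 0.0721 CPM (5 and 9 counts) in control. Everywhere else it had at most 14 counts in a library. The log2 fold change at 24 h was 3.80 (SE 1.23, adjusted p = 0.034), and it was not called at 4 wk. The call at 24 h ended without any 1 of the 4 libraries (adjusted p 0.11 to 0.18). The lower level at 4 wk than at 24 h in knockout (log2 -4.92, SE 1.34, adjusted p = 0.02) lost its call without any 1 of 3 libraries (adjusted p 0.061 to 0.081).

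Neutrophil markers were highest in the same libraries as Mmp8. Of 10 listed markers 7 were tested, 5 of them higher in knockout at 24 h and 4 at 4 wk. Among all genes 23.7% were higher at 24 h and 19.9% at 4 wk. The list summed to 24.7 to 26.8 CPM in knockout libraries 24 h after STZ and 2.35 to 2.58 CPM in control. The 4 wk sums were 3.82 to 4.13 CPM in knockout, where Mmp8 was 0.055 and 0 CPM, and 0.567 to 0.604 CPM in control. Their part in the Mmp8 result was not tested.

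Mmp9 (gelatinase B, of neutrophils and macrophages) was 4.61 and 5.43 CPM in knockout libraries 24 h after STZ, against 0.0965 and 0.112 CPM in control. By 4 wk it was 4.82 and 7.28 CPM in knockout, against 0.312 and 0.422 CPM in control. Under vehicle it had 6 counts in each knockout library, and 3 and 0 counts in the control libraries. All 4 knockout libraries taken after STZ stood above every other library. Knockout exceeded control by a log2 of 5.57 (SE 0.46, adjusted p = 2.85e-05) at 24 h and of 4.04 (SE 0.41, adjusted p = 0.00013) at 4 wk, and in control 4 wk exceeded vehicle by 4.38 (SE 0.63, adjusted p = 0.0026), a call lost with only the libraries compared (adjusted p = 0.073). Within knockout, 4 wk was not called against 24 h (log2 0.27, SE 0.36, adjusted p = 0.60).

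Of the 7 neutrophil markers tested, 4 were lower at 4 wk than at 24 h in knockout, where 15.5% of all genes were lower. S100a9 had 0.101 and 0.172 CPM at 4 wk and 5.87 and 4.64 CPM at 24 h there, whereas Retnlg had 1.495 and 1.26 CPM at 4 wk and 2.20 and 2.27 CPM at 24 h, so the markers differed among themselves. Macrophage markers (10 genes) summed to 1417 to 1428 CPM in knockout libraries at 24 h, against 164 to 166 CPM in control. The macrophage sum of 4 wk was 253 to 306 CPM in knockout, against 81.5 to 93 CPM in control. All 10 macrophage markers were higher in knockout at 24 h and 9 at 4 wk, where 23.7% and 19.9% of all genes were higher. Within knockout all 10 were lower at 4 wk than at 24 h, where Mmp9 was not called and Mmp13 was higher. The part of macrophages and neutrophils in the Mmp9, Mmp12, Mmp13 and Mmp14 results was not tested.

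Mmp12 (macrophage elastase) had 12.3 CPM in both knockout libraries 24 h after STZ, against 3.04 and 2.83 CPM in control. At 4 wk the values were 4.79 and 2.67 CPM in knockout, against 2.46 and 1.81 CPM in control. In vehicle it had 2.06 and 2.55 CPM in knockout, against 1.59 and 2.63 CPM in control, and the groups overlapped. Knockout exceeded control by a log2 of 2.06 (SE 0.33, adjusted p = 0.0011) at 24 h, and the difference at 4 wk was not called (log2 0.80, SE 0.33, adjusted p = 0.10). Without knockout library B the 4 wk difference was called (log2 1.17, adjusted p = 0.025).

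**Figure D4:**
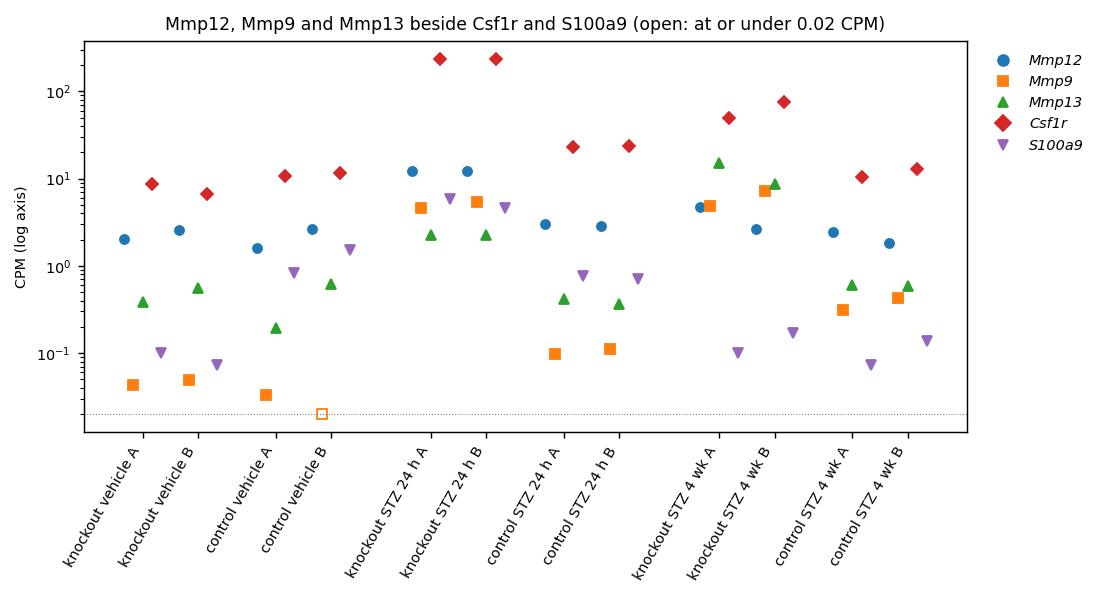
CPM on a log axis of Mmp12, Mmp9 and Mmp13 beside the macrophage gene Csf1r and the neutrophil gene S100a9 in each library, with open symbols at or under 0.02 CPM. In knockout, Csf1r and S100a9 stand lower at 4 wk than at 24 h, whereas Mmp13 stands higher.

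Mmp7 (matrilysin, made by epithelia; in mice the Paneth cells of the small intestine use it to activate defensins) had 2.77 and 3.16 CPM in knockout libraries 24 h after STZ, against 0.552 and 0.593 CPM in control. The 4 wk values of Mmp7 were 4.01 and 4.18 CPM in knockout, against 0.0904 and 0.313 CPM in control. The 2 vehicle knockout libraries differed, with 0.31 and 0.0245 CPM, against 0.511 and 0.74 CPM in control. The log2 fold change was 2.37 (SE 0.75, adjusted p = 0.032) at 24 h, a call that ended without any 1 of the 4 libraries (adjusted p 0.083 to 0.15), and 4.32 (SE 0.83, adjusted p = 0.0046) at 4 wk. The Paneth defensin Defa24 had 51.4 and 41 CPM in knockout libraries at 4 wk and 0.01 and 0.029 CPM at 24 h. At 24 h, where Mmp7 was already raised, Paneth markers summed to 26.1 to 27 CPM in knockout, nearly all Lyz1 (25.3 to 26.2 CPM), and 1.14 to 1.58 CPM in control. Of 9 listed Paneth markers 8 were tested, 3 of them higher in knockout at 24 h and 8 at 4 wk. Among all genes tested 23.7% were higher at 24 h and 19.9% at 4 wk. In either direction 43% and 27.8% were called, so the 3 of 8 at 24 h stand near that share. At 4 wk the Paneth markers summed to 201 to 232 CPM in knockout and 0.379 to 0.476 CPM in control. Of 8 duct markers, 5 were higher and 1 lower in knockout at 24 h, and 5 were higher and 0 lower at 4 wk. The part of Paneth and duct cells in the Mmp7 result was not tested.

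Timp1 (secreted inhibitor of most of these enzymes, weak against MMP14) had 5.26 and 4.50 CPM in knockout libraries 24 h after STZ, against 1.15 and 1.67 CPM in control. The 4 wk values of Timp1 were 0.376 and 0.344 CPM in knockout, against 0.246 and 0.291 CPM in control. Under vehicle it had 0.325 and 0.229 CPM in knockout, against 0.566 and 0.387 CPM in control. It rose over vehicle at 24 h in both genotypes, and knockout exceeded control there (log2 1.79, SE 0.29, adjusted p = 0.0011), and the difference at 4 wk was not called (log2 0.42, SE 0.31, adjusted p = 0.38). In control its gain over vehicle was called (log2 1.56, SE 0.30, adjusted p = 0.013) and was lost without control vehicle B or control STZ 24 h B (adjusted p 0.12 and 0.11). Within knockout, 4 wk was below 24 h (log2 -3.76, SE 0.32, adjusted p = 4.82e-05).

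The level of the enzyme genes relative to Timp1, per length of transcript, overlapped between genotypes at 24 h and not at 4 wk. The 9 enzyme genes summed to 42.4 and 44.7 CPM per kb in knockout libraries at 24 h, against 9.93 and 10.1 in control. The 4 wk sums were 47.5 and 43.7 CPM per kb in knockout, against 3.89 and 4.59 in control. The ratio of this sum to Timp1 was 6.54 and 8.04 in knockout and 7.003 and 4.90 in control at 24 h. It was 102 and 103 in knockout and 12.79 and 12.77 in control at 4 wk. Mmp10 took 39.1 to 49.3% of the knockout sum at 4 wk, and without it the ratio was 51.9 to 62.7 in knockout and 11.2 in control. In the other groups Mmp14 and Mmp2 led, and in knockout at 4 wk the order by mean CPM per kb was Mmp10 (20.3 ± 4.48), Mmp14 (6.56 ± 1.81) and Mmp2 (6.42 ± 1.43; SD, n = 2), where Mmp14 and Mmp2 do not differ beyond their spread.

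**Figure D5:**
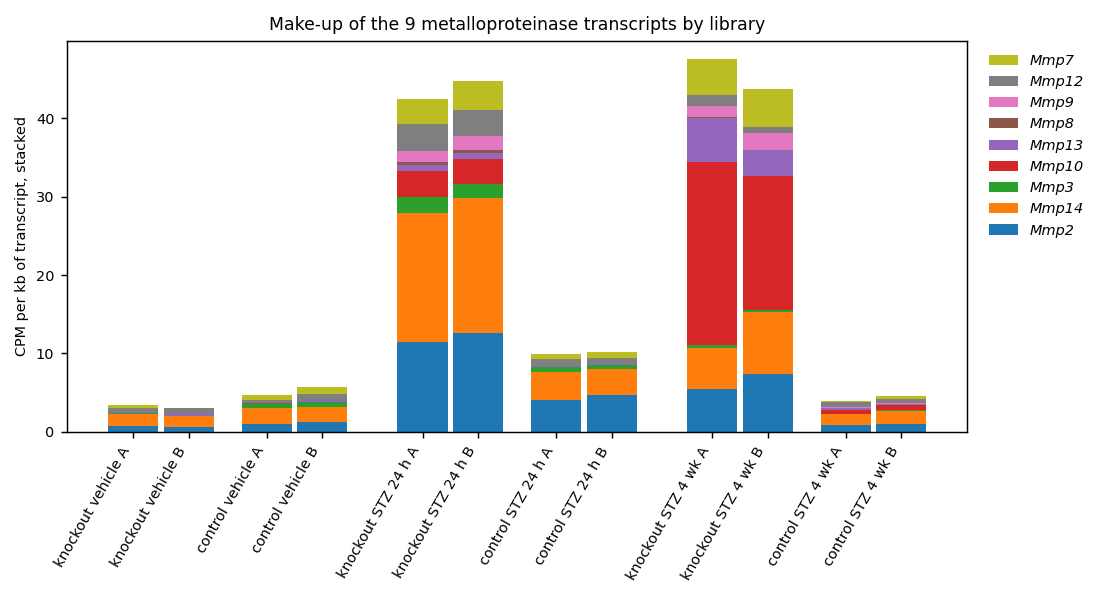
Stacked CPM per kb of transcript of the 9 metalloproteinase genes in each of 12 libraries. The knockout libraries of 24 h are mostly Mmp14 and Mmp2, and those of 4 wk are led by Mmp10, at about equal totals.

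Whether the response to STZ itself differed by genotype was tested with an interaction term. At 24 h it was past the threshold for 9 of 10 genes, all with the larger gain in knockout, where 37.7% of all genes were called, 21.1% higher and 16.6% lower. At 4 wk it was past the threshold for Mmp2, Mmp3, Mmp7, Mmp13 and Mmp14, with the higher STZ effect in knockout. Among all genes 26.1% were called there, 18.7% higher and 7.35% lower. For Mmp3 the 4 wk level in knockout was not called against vehicle. In control, Mmp3 had 0.751 and 1.25 CPM under vehicle and 0 and 0.182 CPM at 4 wk. In knockout it had 0.0649 and 0.163 CPM under vehicle and 0.606 and 0.445 CPM at 4 wk. With 1 library left out, the 24 h interaction lost its call in 6 fits for Mmp8 (adjusted p 0.051 to 0.068), 6 for Mmp13 (0.057 to 0.12), 3 for Mmp7, 2 for Mmp9 and 1 for Mmp3. For Mmp10 the interaction could not be estimated in edgeR, since both vehicle groups had 0 counts. These comparisons share the vehicle libraries with those above. The interaction was also past the threshold, in the same direction, for 10 of 10 acinar markers and 5 of 6 liver markers at each time. The part of these tissues in the interaction of the members was not tested.

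Other genes of the system were read from lists of related genes. Of 14 other metalloproteinase genes, 10 were tested, and 4 rose and 2 fell in knockout against control 24 h after STZ, where 23.7% of all genes were higher and 19.4% lower. The list median was 1.19, against 0.0015 over all genes. Mmp19, a secreted metalloproteinase of stroma and leukocytes, had 27.9 ± 1.53 CPM in knockout and 6.51 ± 0.444 CPM in control (SD, n = 2 each; log2 2.10, SE 0.21, adjusted p = 7.97e-05). Mmp24, a membrane-type enzyme, was lower, with 2.34 ± 0.381 CPM in knockout and 6.69 ± 0.349 CPM in control (log2 -1.51, adjusted p = 0.005), as was Mmp16 (log2 -1.45, adjusted p = 0.00083). At 4 wk Mmp19, Mmp23 and Mmp11 rose and none fell, where 19.9% of all genes were higher and 7.89% lower (median 1.29 against 0.0067). Mmp1a, Mmp1b, Mmp20 and Mmp21 had no count in any library.

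Of 8 inhibitor and docking genes, 5 rose in knockout at 24 h and 3 at 4 wk, with none lower. Among all genes 23.7% were higher at 24 h and 19.9% at 4 wk, and 43% and 27.8% were called in either direction, so the 3 of 8 at 4 wk stand near that share. The list medians were 1.25 and 0.52, against 0.0015 and 0.0067 over all genes. Timp2, the adaptor of MMP14 and MMP2, had 103 ± 1.41 CPM in knockout and 55.4 ± 2.53 CPM in control at 24 h (log2 0.89, SE 0.11, adjusted p = 0.00022), and 52.2 ± 4.89 CPM in knockout and 31.1 ± 1.97 CPM in control at 4 wk (log2 0.75, SE 0.11, adjusted p = 0.00093). Lcn2, which binds and protects MMP9 in humans, had 17.7 ± 1.76 CPM in knockout and 2.54 ± 0.233 CPM in control at 24 h (log2 2.80, SE 0.27, adjusted p = 6.00e-05). Timp3, a matrix-bound inhibitor named after its values were seen, was not called at either time, with 220 ± 9.71 CPM in knockout and 197 ± 3.76 CPM in control at 24 h (adjusted p = 0.50).

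Of 10 plasminogen and furin genes, 5 rose in knockout at each time and none fell, where 43% of all genes were called in either direction at 24 h and 27.8% at 4 wk (medians 0.80 and 0.67, against 0.0015 and 0.0067 over all genes). Plau, the urokinase that turns plasminogen into plasmin, had 14.6 ± 0.282 CPM in knockout and 4.26 ± 0.339 CPM in control at 24 h (log2 1.78, SE 0.16, adjusted p = 4.54e-05), and 8.37 ± 0.178 CPM in knockout and 1.60 ± 0.175 CPM in control at 4 wk. Plg, the plasminogen gene, which the liver expresses most, had 359 ± 7.53 CPM in knockout and 118 ± 4.06 CPM in control at 24 h (log2 1.61, SE 0.19, adjusted p = 0.00022). Liver markers moved alongside this list: Alb, the albumin gene, had 10761 and 10130 CPM in knockout libraries at 24 h, against 2852.5 and 2932 CPM in control. The 6 liver markers summed to 13966 to 14427 CPM in knockout and 4717 to 4819.6 CPM in control at 24 h, and to 5308 to 5887 CPM in knockout and 2011 to 2153 CPM in control at 4 wk, and 5 of the 6 were higher in knockout at each time. Their part in the plasminogen result was not tested.

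Of 20 inducers tested (AP-1 and Ets factors, cytokines and their receptors), 10 rose and 1 fell at 24 h, and 13 rose and 1 fell at 4 wk, where 43% and 27.8% of all genes were called (medians 1.92 and 0.79, against 0.0015 and 0.0067 over all genes). Under vehicle none of the inducers was higher in knockout and 5 were lower, where 7.68% of all genes were lower, among them the AP-1 genes Fosb (log2 -2.79, adjusted p = 1.86e-05), Fos (log2 -1.48, adjusted p = 5.18e-05) and Jun (log2 -1.43, adjusted p = 0.00017). Fosl2, an AP-1 subunit, had 40.6 ± 0.405 CPM in knockout and 9.65 ± 0.685 CPM in control at 4 wk (log2 2.07, SE 0.12, adjusted p = 4.67e-06). Ets1 had 137 ± 3.21 CPM in knockout and 23.9 ± 0.107 CPM in control at 24 h (log2 2.51, SE 0.13, adjusted p = 3.30e-06), and Fos was not called there (log2 -0.13, adjusted p = 0.36). Of 12 adamalysins, metalloproteinases of the cell surface and matrix, 8 rose and none fell at 24 h, and 5 rose and 2 fell at 4 wk, where 43% and 27.8% of all genes were called (medians 0.92 and 0.45, against 0.0015 and 0.0067 over all genes).

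The genes most like a member, by Pearson correlation of log2 CPM over the 12 libraries among 12545 genes of at least 2 CPM, were sought for the 5 members that reach that mean level, and Mmp3, Mmp7, Mmp8, Mmp9 and Timp1 lie under it. Those of Mmp2 were Bgn (r = 0.997), Fbn1 (0.994) and Fgfr3 (0.987). Those of Mmp14 were Csf1r (0.994), Ttc38 (0.99) and Lsp1 (0.989), and those of Mmp12 were Eda2r (0.978), Phf11d (0.977) and Trim30a (0.976). Mmp10 was most like Isx (0.998), an intestinal homeobox gene, Slc51a (0.998), a bile acid exporter of the ileum, and Tmprss15 (0.994), the enteropeptidase of the duodenum, and Mmp13 was most like Naip5 (0.982), Mpp1 (0.977) and Slc19a3 (0.976). The points share groups and tissue content, so these are descriptions of 12 libraries.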

How the data were processed

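Islet RNA from 12 mouse libraries was used. The authors deposited estimated counts (expected counts) per gene and per transcript, per the file headers made with StringTie 1.3.6 in stranded mode against a fixed mm10 annotation, and no source used here names the aligner. Dividing each transcript's coverage times length by 75 and rounding up gave its count within 1 in 100% of 276825 values. The labels give longer reads, so counts exceed reads by a constant factor, and floors are in counts.

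Counts were rounded and tested with edgeR 4.0.16 in R 4.3.3: TMM, filterByExpr (17411 of 24421 genes; 19624 had any count), robust quasi-likelihood F test, 1 fit of 6 group means, two-sided, Benjamini-Hochberg, threshold 0.05. TMM factors were 0.825 to 1.21 and the common dispersion was 0.0493 with 6 residual degrees of freedom. CPM uses TMM-scaled library sizes, and CPM per kb the transcript length (Timp1, the shortest transcript, 810 bases). Replicates are not copies (chi-square over degrees of freedom 24.5 to 462). The AP-1 search and figures used Python 3.11.15.

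Alternatives were DESeq2 1.42.0 size factors, total-count scaling, no filter, the DESeq2 Wald test, a replicate block, only the libraries compared, and leaving out each library. The test was also run on simulated data, with the common dispersion for all genes and changes planted only in genes above a count floor. That run does not bear on calls from few counts or on shifts in tissue content. Members, lists and tests were chosen with earlier results of these data known. All 10 members are named; of each list, up to 4 called genes of smallest adjusted p, and other genes, named beside a result, were chosen after their values were seen.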

Additional observations from a re-analysis of the deposited data

Results flagged for a closer look

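The response to STZ differed between genotypes beyond the spread of libraries, by edgeR's interaction term, for 9 of the 10 genes at 24 h. In each of them the STZ effect (log2, STZ against vehicle) was larger in knockout than in control: by 7.13 for Mmp8, 4.88 for Mmp3, 4.24 for Mmp7, 4.16 for Mmp9, 2.78 for Mmp14, 2.57 for Timp1, 2.32 for Mmp13, 2.11 for Mmp2 and 1.94 for Mmp12. The adjusted p-values were 9.12e-05 (Mmp14), 0.00034 (Mmp2), 0.0015 (Timp1), 0.01 (Mmp12), 0.013 (Mmp3), 0.015 (Mmp7), 0.016 (Mmp8), 0.023 (Mmp13) and 0.025 (Mmp9). Without control vehicle A, which holds the 3 counts of Mmp9 in the control vehicle group, the Mmp9 difference was 0.11 (adjusted p = 0.83). At total-count scaling, Mmp12 (1.15, adjusted p = 0.062) and Mmp13 (1.54, adjusted p = 0.076) missed the threshold. The vehicle levels are part of each difference. Under vehicle, Mmp3 had 0.0649 and 0.163 CPM in knockout, against 0.751 and 1.25 CPM in control. Mmp7 had 0.31 and 0.0245 CPM, against 0.511 and 0.74 CPM, and Mmp8 had 3 and 0 counts, against 8 and 14. Mmp12 and Mmp13 overlapped there, and Mmp9 was higher in knockout. Mmp3 was not called between genotypes 24 h after STZ in the fit of all libraries.

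At 4 wk the difference was past the threshold for 5 genes, again larger in knockout: by 6.19 for Mmp7, 5.61 for Mmp3, 4.10 for Mmp13, 3.48 for Mmp2 and 2.51 for Mmp14. The adjusted p-values were 2.78e-05 (Mmp2), 0.00023 (Mmp14), 0.0018 (Mmp13), 0.0039 (Mmp7) and 0.013 (Mmp3). With only the libraries compared, Mmp3 (adjusted p = 0.071) missed the threshold. For Mmp10 the difference cannot be decided from these libraries, since both vehicle groups had 0 counts and give no level to compare with. DESeq2's Wald test gave an adjusted p of 4.44e-06 at 24 h and 0.019 at 4 wk, where edgeR gave no usable estimate. No conclusion is drawn from these values.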

How the results depend on the processing

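Of 666 repeats of the members' called results under the alternatives, 624 kept direction and call, 42 lost the call and none turned round. Under vehicle, knockout against control gave 0 called members, but 1 with total-count scaling, 2 with the DESeq2 Wald test, 3 with the replicate block (Mmp2, Mmp3 and Mmp14), 1 with only the libraries compared and 0 to 1 with a library left out. For STZ 24 h against vehicle in control, 2 called members became 4 with total-count scaling, 4 with the Wald test and 1 to 3 with a library left out. For STZ 4 wk against vehicle in control, 2 became 1 with only the libraries compared. The genotype difference of the STZ effect at 24 h had 9 called members, and 5 to 8 with a library left out (5 without control STZ 24 h A or B). Total-count scaling shifted the median gene by 0.53 (knockout against control under vehicle), -0.24 (24 h) and -0.08 (4 wk) on the log2 scale, and by -0.79 for the genotype difference at 24 h. Uncalled values that turned round with total-count scaling were Mmp14 in knockout against control under vehicle (0.0625), Mmp13 (0.26) and Mmp7 (0.18) in STZ 24 h against vehicle in control, and Mmp14 (0.0442) and Mmp2 (0.11) in STZ 4 wk against vehicle in control. With only the libraries compared, Mmp12 at 4 wk against vehicle in control was -0.0029. With a library left out, uncalled values spanned 0 for knockout against control under vehicle in Mmp12 (-0.19 to 0.54) and Mmp13 (-0.38 to 1.27), at 4 wk in Mmp8 (-3.52 to 4.63), for STZ 24 h against vehicle in control in Mmp13 (-0.65 to 0.996), Mmp7 (-0.37 to 0.17) and Mmp3 (-0.28 to 0.46), for STZ 4 wk against vehicle in knockout in Mmp8 (-3.51 to 4.63), in control in Mmp12 (-0.30 to 0.43) and Mmp13 (-0.0402 to 1.61), for 4 wk against 24 h in knockout in Mmp9 (-0.0587 to 0.54), and for the genotype difference at 4 wk in Mmp8 (-0.20 to 7.96) and Mmp9 (-1.43 to 3.54). The cause was not tested. The letters A and B do not pair the samples: the correlation of the A minus B gap between genotypes was 0.12 under vehicle, 0.05 at 24 h and 0.48 at 4 wk. Besides the vehicle counts, the replicate block added 1 call, Mmp12 at 4 wk (adjusted p = 0.0065). Depth limits Mmp8, and Mmp9 under vehicle, which rest on few counts.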
